A study of Mus musculus with 7 samples.

Results

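Gene expression was compared between 3 mouse high-grade gliomas titled as PDGF-B driven and 3 titled as EGFRvIII driven. These 6 gliomas were chosen by their sample titles from the 7 samples of the series, and all 17422 genes of the deposited tables entered the comparison. The seventh sample, cultured neural progenitors that carry the PDGF-B vector, entered no test and served to show which genes such cells express outside a brain. In both models, neural precursors of BALB/c mouse embryos at embryonic day 14 were infected in culture with retroviruses and, after 10 days, 20000 cells were grafted into the brain of adult mice of the same strain. The PDGF-B model used wild-type precursors and a vector for PDGF-B, and the EGFRvIII model used Ink/Arf -/- precursors and a vector for EGFRvIII, so oncogene and genotype differ together between the groups. Every graft also received the gene of the red fluorescent protein DsRed, and the tumours were taken out at the first neurological symptoms and sorted for DsRed before RNA was isolated. The series text calls the tumours of each model independent.

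PDGF-B binds the receptors for platelet-derived growth factor, which drive the division of oligodendrocyte precursors in the developing brain. EGFRvIII is a form of the epidermal growth factor receptor that lacks part of its outer domain and signals without ligand. The Ink/Arf locus, Cdkn2a in the mouse, encodes inhibitors of the cell cycle and of p53 breakdown. Microglia are the resident macrophages of the brain; they derive from the yolk sac and not from neural precursors, so a neural precursor culture holds few or none of them.

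Levels are given in CPM, read counts scaled to library size, for replicates 1, 2 and 3 of each group. A log2 fold change is the mean log2 CPM of the gliomas labelled PDGF-B minus that of the gliomas labelled EGFRvIII, on the deposited scale, which understates the change of genes with few reads. A gene was called at a limma adjusted p of 0.05. By this rule 583 genes were called (3.35% of the 17422), of which 125 were higher (0.717%) and 458 lower (2.63%) in the PDGF-B-labelled gliomas. Counts of the gene lists below are to be set against these shares. The groups did not overlap in 10.3% of all genes with the PDGF-B-labelled gliomas higher and in 12.6% with them lower. An unadjusted limma p under 0.05 was found for 16.7% of all genes. Depth ranged from 32513754 to 39062584 recovered reads per library, and mitochondrial genes held 4.20% to 6.14% of the CPM in the gliomas.

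Egfr, the gene of the epidermal growth factor receptor, was at 4953, 5109 and 3594 CPM in the PDGF-B-labelled gliomas and 41.2, 26.9 and 25.6 CPM in the EGFRvIII-labelled gliomas. The culture held 282 CPM. Egfr was therefore high in every library labelled PDGF-B, with a log2 fold change of 7.20 (adjusted p = 0.000187 in limma, SE 0.26). Pdgfb stood at 1.95, 2.97 and 4.88 CPM in the PDGF-B-labelled gliomas and 386, 284 and 277 CPM in the EGFRvIII-labelled gliomas, with 245 CPM in the culture and a log2 fold change of -6.65 (adjusted p = 0.000838 in limma, SE 0.34). Each driver gene was low in the libraries titled with its name and high in the others, without overlap. Both drivers go against the titles of all 6 gliomas, and the sources used here do not say whether the vectors carry mouse or human sequence. Every direction below is given for gliomas as labelled, and all libraries stayed in the group of their title.

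The targeted locus ran the same way. Cdkn2a stood at 3.52, 2.94 and 4.99 CPM in the PDGF-B-labelled gliomas and 22.7, 26.1 and 11.1 CPM in the EGFRvIII-labelled gliomas, and at 10.7 CPM in the culture, with a log2 fold change of -2.31 (adjusted p = 0.0318 in limma, SE 0.39). It was lower in each library of the group described as wild type. Next to it on chromosome 4 lies Gm12606, a long intergenic RNA gene on the minus strand (GRCm38, 89235699 to 89273403). Cdkn2a, on the same strand, spans 89274471 to 89294653, so Gm12606 lies downstream of it. Gm12606 stood at 18.9, 16.6 and 31.96 CPM in the PDGF-B-labelled gliomas and 0, 0.0299 and 0.0273 CPM in the EGFRvIII-labelled gliomas, with a log2 fold change of 8.16 (adjusted p = 0.000838 in limma, SE 0.42) and no reads in the culture. It was present in every PDGF-B-labelled glioma and close to nothing in the culture and the other gliomas. Of the 28 measured genes within 5 Mb of Cdkn2a, Gm12606 and Cdkn2a were the only called genes. Cdkn2b, the neighbouring cell cycle inhibitor gene, stood at 26.9, 20.8 and 43.1 CPM against 15.1, 44.1 and 44.4 CPM, with overlapping groups and a log2 fold change of -0.10 (adjusted p = 0.928 in limma, SE 0.47). The sources used here do not say how the deletion was made or which exons remain.

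Across all genes, 2 were at or above 1 CPM in every library of a group and below 0.1 CPM in every library of the other. Besides Gm12606 the second was Gm10182, annotated as a processed pseudogene on chromosome 9 (GRCm38, 22321105 to 22321377), at 11.2, 5.60 and 18.8 CPM in the PDGF-B-labelled gliomas and listed at 0 in the EGFRvIII-labelled gliomas and the culture. Reads of a processed pseudogene can come from its parent gene, so its level is uncertain. Both were high in the PDGF-B-labelled gliomas, and the thresholds of this description were set after the values were seen.

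**Figure D1:**
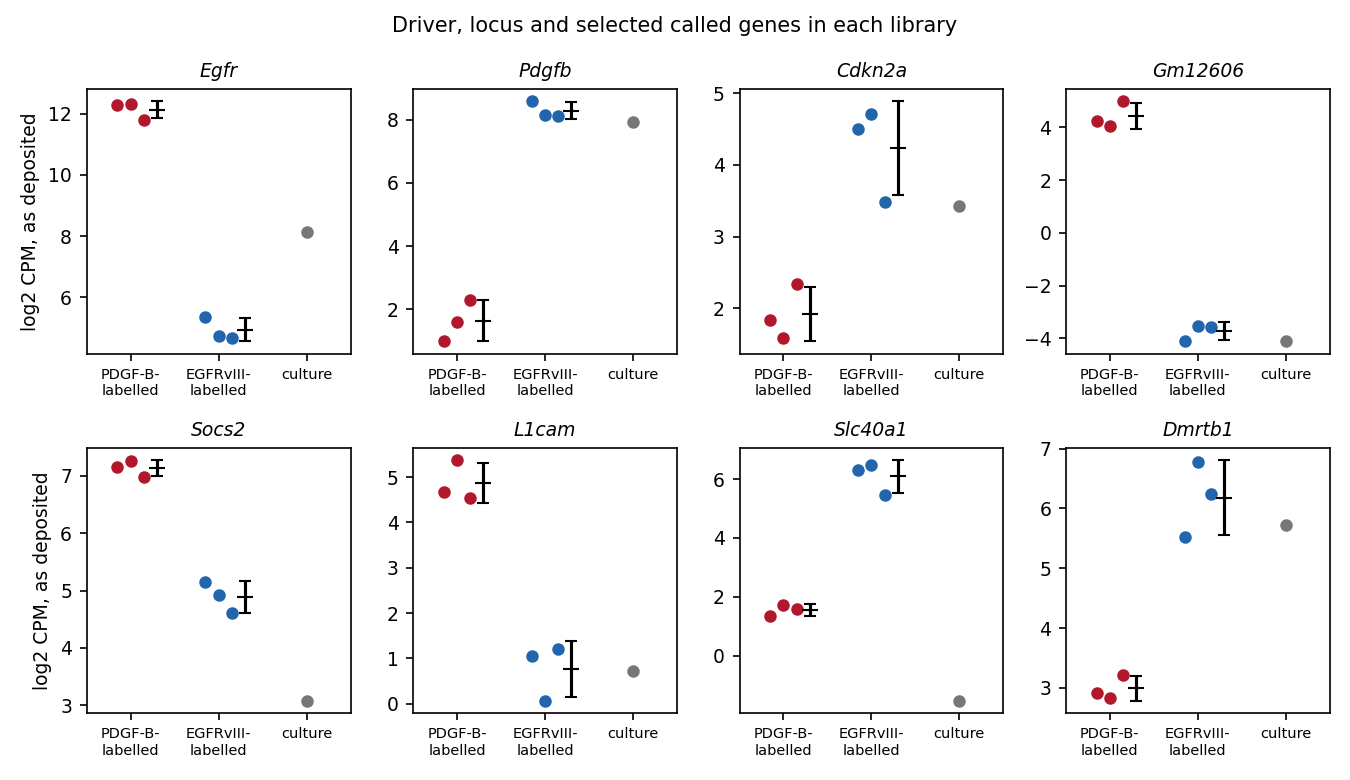
Level of 8 genes in each library as deposited log2 CPM; points are libraries, the cross-bars beside each group show the mean and SD of 3 gliomas, and each panel has its own axis. Egfr, Gm12606, Socs2 and L1cam are higher in all 3 PDGF-B-labelled gliomas, and Pdgfb, Cdkn2a, Slc40a1 and Dmrtb1 are lower, with the culture (1 library) near the EGFRvIII-labelled gliomas for Pdgfb, L1cam, Dmrtb1 and Gm12606.

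Single libraries had a large part in the number of calls. Without replicates 1, 2 and 3 labelled PDGF-B the fits called 4, 7 and 1282 genes, and without replicates 1, 2 and 3 labelled EGFRvIII they called 21, 15 and 7. Egfr, Pdgfb, Gm12606 and Slc40a1 were the only genes called in all 6 of these fits. Of the 583 calls, 557 were kept in no more than 1 of the 6, and each call named below, other than those 4, ended in at least 1 of them. The direction of all 583 was kept in every such fit. Where the groups do not overlap, leaving out 1 glioma cannot turn the direction, so this is no separate support for the calls. On the first principal component the EGFRvIII-labelled gliomas had scores of 37.2 to 102. PDGF-B-labelled replicates 1 and 2 had -89.3 and -88.7, and replicate 3 had -5.77, the closest of its group to the others.

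**Figure D2:**
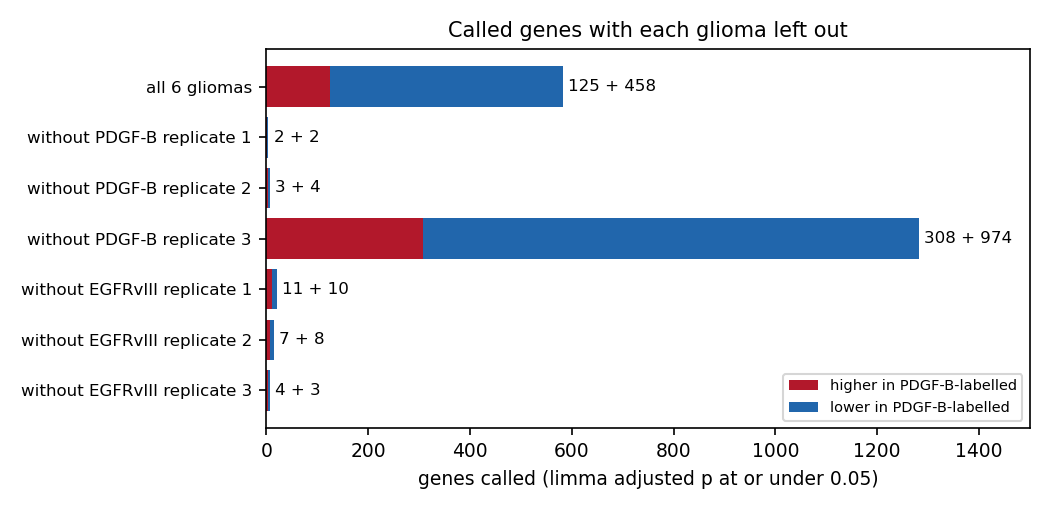
Genes called at a limma adjusted p of 0.05 in the fit of all 6 gliomas and in each fit that leaves out 1 glioma; red bars are genes higher in the PDGF-B-labelled gliomas and blue bars genes lower. The count falls from 583 to between 4 and 21 in 5 of the fits and grows to 1282 without PDGF-B-labelled replicate 3.

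The genes lower in the PDGF-B-labelled gliomas were mostly genes that the culture hardly expressed. Of the 458, 268 stood under 1 CPM in the culture (58.5%), and of the 125 higher genes 34 did (27.2%). Called lower were 8.05% of the 3328 genes under 1 CPM in the culture and 1.35% of the 14094 genes at or above it, while called higher were 1.02% and 0.646%. Among the 867 genes under 0.1 CPM in the culture, 146 were called lower and 12 higher. The median culture level was 0.449 CPM for the genes called lower, 4.80 CPM for those called higher and 15.6 CPM over all genes. The culture is 1 library of progenitors that carry the PDGF-B vector, so its part is a description.

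**Figure D3:**
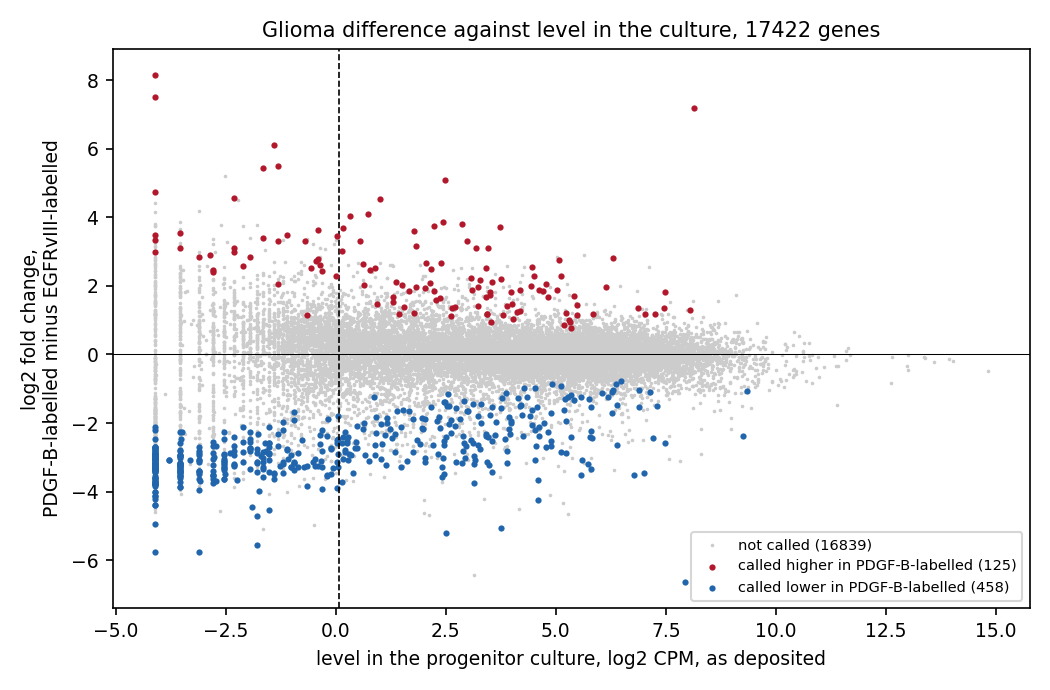
Log2 fold change between the glioma groups (vertical axis) against the level in the progenitor culture (horizontal axis, deposited log2 CPM) for 17422 genes; red and blue points are genes called higher and lower in the PDGF-B-labelled gliomas, grey points are not called, and the dashed line marks 1 CPM. Blue points crowd the left edge, where the culture has almost no reads, and 268 of the 458 lie left of the line.

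Microglial genes were lower in the PDGF-B-labelled gliomas. Of 20 genes of homeostatic microglia, the surveying state of the healthy brain, 17 were called, each in that direction, with a median log2 fold change of -3.08 against 0.00 over all genes. Their summed level was 667 to 1522 CPM in the PDGF-B-labelled gliomas, 5635 to 14040 CPM in the EGFRvIII-labelled gliomas and 205 CPM in the culture. The lowest value of each group belonged to replicate 1, and the highest to replicate 3 labelled PDGF-B and to replicate 2 labelled EGFRvIII. Trem2, Fcrls, P2ry13 and Siglech had no reads in the culture. In a bulk library fewer cells of a type and less RNA per cell cannot be told apart, and all libraries came from cells sorted for DsRed.

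P2ry13, a purinergic receptor gene of microglia, stood at 9.58, 11.97 and 22.4 CPM in the PDGF-B-labelled gliomas and 95.1, 137 and 106 CPM in the EGFRvIII-labelled gliomas. The groups did not overlap, and replicate 3 was the highest of the PDGF-B-labelled gliomas; the log2 fold change was -3.01 (adjusted p = 0.0207 in limma, SE 0.33). Trem2, a lipid-sensing receptor of microglia, stood at 7.81, 6.82 and 21.1 CPM against 111, 287 and 147 CPM, likewise without overlap, with a log2 fold change of -4.0 (adjusted p = 0.0245 in limma, SE 0.51). Tmem119, a marker of microglia against other macrophages, stood at 6.61, 9.64 and 27.6 CPM against 68.5, 137 and 85.9 CPM, a change of -2.94 (adjusted p = 0.0344 in limma, SE 0.53). Sall1, a transcription factor that keeps microglial identity but is also expressed by neural precursors, stood at 93.4, 124 and 86.7 CPM against 55.3, 76.2 and 162 CPM and at 86.1 CPM in the culture. It was not called, with a log2 fold change of 0.18 and overlapping groups.

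The disease-associated state of microglia, entered near damage or tumour cells, was represented by 20 genes, of which 10 were called, each lower, with a median of -3.44. Itgax, the CD11c integrin gene of that state, stood at 17.04, 15.6 and 20.4 CPM in the PDGF-B-labelled gliomas and 99.1, 162 and 135 CPM in the EGFRvIII-labelled gliomas. It had no reads in the culture, its spread within each group was narrow, and its log2 fold change was -2.87 (adjusted p = 0.00769 in limma, SE 0.23). Apoc1, a gene of a lipid carrier protein, was at 1.54, 1.79 and 0.952 CPM against 41.2, 175 and 64.3 CPM, a change of -5.75 (adjusted p = 0.0163 in limma, SE 0.54). Gpnmb, a membrane glycoprotein of lipid-laden macrophages, stood at 0.437, 0.9697 and 10.5 CPM against 51.7, 75.8 and 144 CPM, with replicate 3 the highest of each group. Spp1, the osteopontin gene, stood at 8.27, 400.3 and 234 CPM against 1011, 5213 and 1188 CPM and was not called (limma adjusted p = 0.179), its PDGF-B-labelled replicates being far apart.

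Genes of macrophages that enter from the blood or live at the brain's borders gave 3 calls among 14 measured, each lower, with a median of -3.52 and a summed level of 187 to 922 CPM against 1993 to 4048 CPM. Stab1, a scavenger receptor gene, stood at 13.2, 13.8 and 55.1 CPM against 492, 327 and 249 CPM, a log2 fold change of -3.98 (adjusted p = 0.0254 in limma, SE 0.56). Mrc1, the mannose receptor gene CD206, stood at 5.83, 3.58 and 9.05 CPM against 136, 40.1 and 38.99 CPM, with replicate 1 highest among the EGFRvIII-labelled gliomas (log2 fold change -3.37, adjusted p = 0.0311 in limma, SE 0.55). Lyz2 stood at 22.4, 19.2 and 613 CPM against 2358, 1785 and 821 CPM and Ccr2, a monocyte chemokine receptor gene, at 0, 0.123 and 0.593 CPM against 1.58, 5.28 and 1.64 CPM; neither was called. Of 10 neutrophil markers 2 were measured, of which Csf3r, the receptor of granulocyte colony-stimulating factor, was called lower at 7.91, 9.24 and 21.3 CPM against 61.7, 111 and 114 CPM. Among 17 markers of T, NK and B cells 2 were measured; Cd79b, a B cell receptor subunit gene, was called lower at 0.0583, 0.0606 and 0.05602 CPM against 0.717, 1.43 and 0.5997 CPM, which is under 2 CPM in each library.

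**Figure D4:**
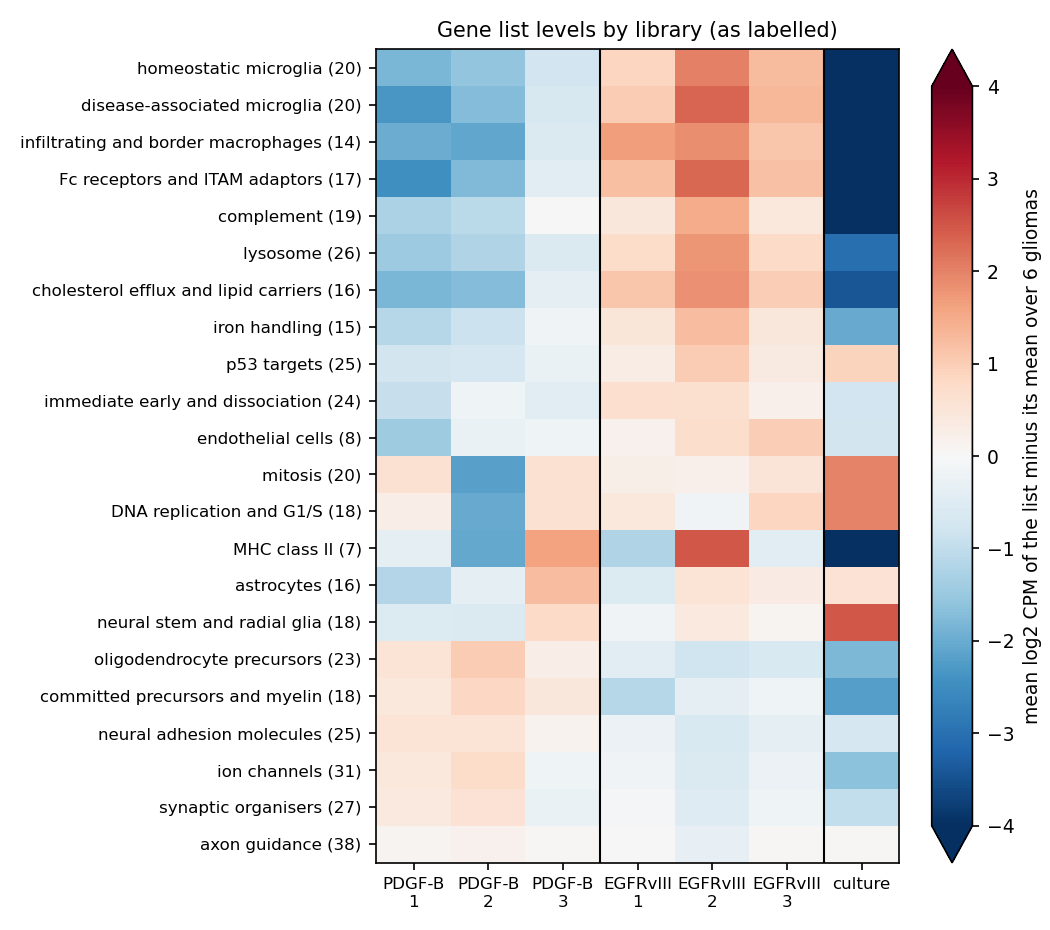
Mean log2 CPM of each gene list in each library minus its mean over the 6 gliomas, with measured genes in brackets; red is above and blue below that mean, and the arrow ends mark values past 4. Lists of myeloid cells and lysosomes are blue in the PDGF-B-labelled gliomas and palest in replicate 3, oligodendrocyte lineage lists are red, and mitosis and DNA replication are low in PDGF-B-labelled replicate 2 alone.

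Immunoglobulin Fc receptors signal in myeloid cells through adaptor chains with ITAM motifs, which recruit the kinase Syk. All 17 measured members of this list had non-overlapping groups with the PDGF-B-labelled gliomas lower, where 12.6% of all genes did, and 9 were called. Tyrobp, the DAP12 adaptor gene, stood at 6.99, 11.2 and 26.2 CPM in the PDGF-B-labelled gliomas and 112, 427 and 130.3 CPM in the EGFRvIII-labelled gliomas, with no reads in the culture (log2 fold change -3.85, adjusted p = 0.0311 in limma, SE 0.63). The Fc receptor gamma chain gene Fcer1g stood at 5.91, 12.2 and 29.3 CPM against 98.8, 293 and 86.6 CPM, and Syk itself at 2.85, 3.52 and 15.8 CPM against 56.4, 58.8 and 40.1 CPM. Cd300a, an inhibitory receptor gene, stood at 2.02, 1.79 and 2.97 CPM against 17.1, 24.02 and 16.02 CPM, with narrow groups and a log2 fold change of -3.05 (adjusted p = 0.0186 in limma, SE 0.32). Sirpa, the receptor for the CD47 signal that restrains engulfment, had a smaller difference, at 95.4, 101 and 102 CPM against 230.3, 276 and 362 CPM and 55.6 CPM in the culture.

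Complement genes split by role. Recognition subunits and receptors were lower, with 7 of 19 members called lower, and C4b, a component of the classical cascade, was called higher. C1qb stood at 48.3, 71.7 and 167 CPM in the PDGF-B-labelled gliomas and 771, 2454 and 717 CPM in the EGFRvIII-labelled gliomas, with no reads in the culture; the highest library was EGFRvIII-labelled replicate 2. Itgam and Itgb2, the chains of complement receptor 3, stood at 29.8, 49.2 and 74.4 CPM against 268, 649 and 390 CPM and 9.61, 11.8 and 41.6 CPM against 105, 306 and 146 CPM. C4b stood at 679, 875 and 532 CPM against 319, 188 and 160.4 CPM and at 2.42 CPM in the culture, a change of 1.68 (adjusted p = 0.0385 in limma, SE 0.32); its reads can be shared with a near-identical copy in the mouse genome. C3, the central component, stood at 1.81, 1.76 and 15.5 CPM against 8.14, 29.6 and 18.5 CPM and was not called.

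Of 26 lysosomal genes 17 were called, each lower in the PDGF-B-labelled gliomas. Non-overlapping groups in that direction were found for 25 of the 26, against 12.6% of all genes. Their median was -2.30, and 3 of the 26 stood under 1 CPM in the culture. Ctsd, the aspartic protease cathepsin D, stood at 379, 405 and 869 CPM in the PDGF-B-labelled gliomas and 3432, 12944 and 4415 CPM in the EGFRvIII-labelled gliomas, and at 110.1 CPM in the culture (log2 fold change -3.51, adjusted p = 0.0301 in limma, SE 0.56). Cd68, a lysosomal membrane glycoprotein gene of macrophages, stood at 18, 17.8 and 56.2 CPM against 235, 416 and 307 CPM. Man2b1, an alpha-mannosidase gene, stood at 66.3, 74.3 and 109 CPM against 314, 579.5 and 427 CPM, with a log2 fold change of -2.39 (adjusted p = 0.0245 in limma, SE 0.29). The membrane proteins Lamp1 and Lamp2 were not called, with log2 fold changes of -0.92 and -0.74. Npc1, a cholesterol exporter of the lysosome, was the exception in direction, at 0.20 and with overlapping groups. The homeostatic microglia list moved with the lysosomal list, and its part in the result was not tested.

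Short promoter windows of genes called lower show where motifs known from such genes occur in them. They were picked from the named genes that hold a match, and not by rank in the lower group. The sequences are from RefSeq (GRCm38.p6), on the gene's strand, and capitals mark the motif. The motifs searched on both strands were GAGGAAGT, bound by the myeloid factor PU.1, TCACGTGA, the palindromic CLEAR element of lysosomal genes, TGANTCA, the palindromic AP-1 element, where N is any base, and the interferon-stimulated element, written as GAAA, any 2 bases and GAAA again. The window of Bcl2a1b also holds an AP-1 match and that of Selenop a match to the interferon-stimulated element, both left in lower case. Matches of other named genes are not printed, among them AP-1 elements of Cp, Tmem88b and Susd5, which were called higher. Cd68 has a second AP-1 element, beginning 24 bases before the start of transcription, that is not printed either.
Bcl2a1b, PU.1 motif, chr9:89199105-89199152, plus strand: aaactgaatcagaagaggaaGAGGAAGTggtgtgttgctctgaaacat
Selenop, PU.1 motif on the opposite strand, chr15:3270566-3270613, plus strand: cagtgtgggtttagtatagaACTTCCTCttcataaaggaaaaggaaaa
Ctsd, CLEAR element, chr7:142387899-142387946, minus strand: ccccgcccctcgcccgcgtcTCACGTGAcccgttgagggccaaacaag
Itgax, AP-1 element, chr7:128129474-128129520, plus strand: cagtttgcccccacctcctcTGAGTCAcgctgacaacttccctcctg
Cd68, AP-1 element, chr11:69666293-69666339, minus strand: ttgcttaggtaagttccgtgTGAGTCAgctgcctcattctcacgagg

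The motifs begin 148 (Bcl2a1b), 181 (Selenop), 99 (Ctsd), 56 (Itgax) and 149 (Cd68) bases before the annotated start of transcription. Bcl2a1b, a survival factor gene of the BCL2 family, stood at 0.283, 0.869 and 2.94 CPM against 14.3, 35.7 and 10.04 CPM, with reads that near-identical copies can share. Selenop, the selenium carrier selenoprotein P, stood at 47.4, 63.4 and 152 CPM against 893, 1379.9 and 517 CPM, a log2 fold change of -3.48 (adjusted p = 0.0257 in limma, SE 0.51). A promoter was found for 11649 of the tested genes, some with several. The PU.1 motif was in 2.31% of all 14903 promoters, in 7.54% of 252 promoters of genes called lower and under 1 CPM in the culture, in 4.39% of 205 promoters of genes called lower and at or above 1 CPM there, and in 0.935% of 107 promoters of genes called higher. AP-1 elements were in 4.56% of all promoters, in 7.54% and 4.88% of those of these lower groups and in 6.54% of those of genes called higher. The interferon-stimulated element was in 2.66% of all promoters, in 3.17% and 3.90% of those of the lower groups and in 0.935% of those of genes called higher. The CLEAR element was in 1.38% of all promoters and in 0.794%, 2.44% and 0% of those of the same groups. Of the 24 promoters of the lysosomal list, 4 held an AP-1 element (16.7%), 3 the CLEAR element (12.5%), 2 the PU.1 motif and 2 the interferon-stimulated element (8.33% each). A match describes the letters of the window and is not evidence of binding.

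Lipid carriers and cholesterol handling gave 8 calls among 16 genes, each lower, with a median of -3.04. Apoe, the main lipid carrier of the brain, made by microglia and astrocytes, stood at 367, 663 and 2439 CPM in the PDGF-B-labelled gliomas and 10002, 11260 and 6981 CPM in the EGFRvIII-labelled gliomas. Replicate 3 was the highest of the PDGF-B-labelled gliomas, and the log2 fold change was -3.46 (adjusted p = 0.0387 in limma, SE 0.65). Mylip, which marks the LDL receptor for breakdown, stood at 6.64, 7.697 and 11.5 CPM against 68.5, 58.7 and 46.01 CPM, a change of -2.76 (adjusted p = 0.0163 in limma, SE 0.27). Abca9, a lipid transporter of the ABC family that was named after its values were seen, stood at 5.57, 6.61 and 5.39 CPM against 48.1, 69.05 and 42.3 CPM, with a change of -3.14 (adjusted p = 0.00769 in limma, SE 0.25). The sterol receptor gene Nr1h3 and the exporter gene Abcg1 were not called, at log2 fold changes of 0.01 and -0.32. Of 20 cholesterol synthesis genes none was called, and 1 had an unadjusted limma p under 0.05, which 16.7% of all genes had.

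Of 15 measured iron genes 5 were called lower and 1 higher, and the former include Slc40a1, which no single left-out glioma took out of the calls. Slc40a1, which encodes ferroportin, the iron exporter of cells, stood at 2.48, 3.27 and 2.94 CPM in the PDGF-B-labelled gliomas and 79.3, 90.03 and 44.2 CPM in the EGFRvIII-labelled gliomas, and at 0.289 CPM in the culture. No library of a group came near the other group, and the log2 fold change was -4.54 (adjusted p = 0.00441 in limma, SE 0.31). Hmox1, the heme oxygenase that frees iron from heme, stood at 20.04, 46.5 and 65.1 CPM against 314, 2380 and 553 CPM, with EGFRvIII-labelled replicate 2 far above the other libraries (log2 fold change -4.24, adjusted p = 0.0344 in limma, SE 0.76). Slc11a1, the phagosomal metal transporter NRAMP1, stood at 3.903, 5.27 and 13.8 CPM against 68.1, 116 and 69.5 CPM. Ftl1, the ferritin light chain, stood at 233, 377 and 596 CPM against 1711, 3225 and 1367 CPM, with 614 CPM in the culture; ferritin pseudogenes can share its reads. In the opposite direction, Cp, the ferroxidase ceruloplasmin that works with ferroportin, stood at 204, 193 and 236 CPM against 67.9, 51.6 and 27.8 CPM (log2 fold change 2.19, adjusted p = 0.0258 in limma, SE 0.32). The receptor gene Tfrc and the regulators Aco1 and Ireb2 were not called, with log2 fold changes of 0.56, -0.10 and 0.17.

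Secreted factors of the lower group included chemokines and growth factors. Ccl3, a chemokine for monocytes and microglia, stood at 7.69, 20.3 and 9.94 CPM against 64.2, 245 and 83.8 CPM, a log2 fold change of -3.24 (adjusted p = 0.0323 in limma, SE 0.56), and Cxcl16 and Cxcl2 were also called lower. Of the ligands of the receptor Csf1r, which microglia need to survive, Csf1 stood at 62.8, 58.7 and 63.5 CPM against 57.2, 151 and 103 CPM and Il34 at 2.01, 0.843 and 5.24 CPM against 0.975, 1.196 and 2.399 CPM; neither was called, while Csf1r itself was called lower at 57.4, 85.1 and 175 CPM against 615, 1384 and 951 CPM. Igf1, insulin-like growth factor 1, stood at 0.845, 0.818 and 6.33 CPM against 68.7, 28.2 and 46.8 CPM, a change of -4.71 (adjusted p = 0.0312 in limma, SE 0.79). Igfbp7, a secreted binding protein of that system, was called higher at 41.9, 73.8 and 15.8 CPM against 3.65, 3.39 and 7.31 CPM. Hgf, hepatocyte growth factor, stood at 0.3204, 0.818 and 1.68 CPM against 14.1, 7.91 and 5.33 CPM, and its receptor gene Met, not called, at 0.379, 0.303 and 2.13 CPM against 0.229, 1.405 and 1.17 CPM.

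In TGF-beta signalling the ligand Tgfb1 and the receptors Tgfbr1 and Tgfbr2 were called lower and the BMP ligand Bmp4 higher, out of 28 genes. Tgfb1 stood at 4.54, 6.73 and 15.4 CPM in the PDGF-B-labelled gliomas and 61.2, 103 and 75.6 CPM in the EGFRvIII-labelled gliomas, under 1 CPM in the culture, with a log2 fold change of -3.32 (adjusted p = 0.0245 in limma, SE 0.45). Tgfbr2 stood at 9.52, 11.6 and 41.96 CPM against 135, 158 and 129.6 CPM and at 23.1 CPM in the culture. The intracellular mediators Smad2, Smad3 and Smad4, which all cells share, were not called and had log2 fold changes of -0.14, -0.08 and 0.03. Bmp4, which committed oligodendrocyte precursors express, stood at 2.505, 3.697 and 5.18 CPM against 0.172, 0.418 and 0.327 CPM, a change of 3.41 (adjusted p = 0.0245 in limma, SE 0.47). The homeostatic microglia list, of which Tgfbr1 is itself a member, moved with each of these lower genes as given above, and its part in them was not tested.

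To show which lower genes differed by more or less than microglial genes as a whole, the mean log2 level of the 20 homeostatic genes was subtracted in each library, a description added after the data were seen. That mean was 4.21, 4.46 and 5.26 in the PDGF-B-labelled gliomas and 6.90, 8.06 and 7.31 in the EGFRvIII-labelled gliomas, a difference of -2.78. It includes members that were not called, such as Sall1, and the median log2 fold change of the list was -3.08. Before the subtraction the 268 lower genes under 1 CPM in the culture had a median of -3.16, close to that of the list. The 268 lower genes under 1 CPM in the culture then had a median difference of -0.37, and 36 of them remained lower in all 3 PDGF-B-labelled gliomas while 4 became higher in all 3. For the 190 lower genes at or above 1 CPM in the culture the median was 0.47, with 8 lower and 75 higher in all 3. The lysosomal list had a median of 0.48, with 4 lower and 14 higher of its 26 genes. Shares over all genes after the subtraction were not computed, so these counts have no background to be set against. Of the genes called lower, 17 are themselves in the subtracted list, with P2ry12 and Mertk among those at or above 1 CPM in the culture. The medians of both culture classes are therefore in part fixed by the subtraction.

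Lower genes that the culture does express included p53 targets and a cell cycle kinase. Of 25 p53 targets 3 were called, each lower, with a median of -1.02, and 24 of the 25 had a negative log2 fold change. Pmaip1, the death-promoting BH3 protein Noxa, stood at 4.05, 3.55 and 3.22 CPM in the PDGF-B-labelled gliomas and 25.1, 25.9 and 14.2 CPM in the EGFRvIII-labelled gliomas, and at 29.5 CPM in the culture, with a log2 fold change of -2.53 (adjusted p = 0.0245 in limma, SE 0.31). Btg2, an antiproliferative gene, stood at 6.23, 14.4 and 16.5 CPM against 55.2, 84.4 and 47.7 CPM and 55.1 CPM, and Eda2r, a death receptor gene on the X chromosome, at 15.03, 7.24 and 17.9 CPM against 48.1, 125 and 52.96 CPM and 148 CPM. Cdkn1a, the cell cycle inhibitor p21, stood at 26.03, 28.6 and 69.2 CPM against 88.8, 453 and 117 CPM and was not called (limma adjusted p = 0.142). Mdm2, the p53 ubiquitin ligase, was not called either, at -0.15. Cdk6, a kinase partner of the D cyclins, stood at 1.42, 1.49 and 4.62 CPM against 11.1, 15.5 and 16.7 CPM, with 27.5 CPM in the culture and a log2 fold change of -2.70 (adjusted p = 0.0359 in limma, SE 0.49). Cdk4 and the cyclin genes Ccnd1, Ccnd2 and Ccnd3 were not called, with log2 fold changes of -0.57, -0.20, -0.57 and 0.01.

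In 19 of the 458 lower genes the culture reached at least the lowest EGFRvIII-labelled glioma, and in 407 it stood within or below the PDGF-B-labelled gliomas. The genes of this count named here, apart from Pmaip1, Btg2, Eda2r, Cdk6, Mfng and Dlx6os1, were chosen after their values were seen. Dmrtb1, a DM domain transcription factor gene, stood at 7.49, 7.06 and 9.27 CPM in the PDGF-B-labelled gliomas and 45.9, 109 and 75.4 CPM in the EGFRvIII-labelled gliomas, with 52.7 CPM in the culture and a log2 fold change of -3.19 (adjusted p = 0.0185 in limma, SE 0.33). Neurog2, a proneural factor of neurogenesis, stood at 0.0291, 0 and 0.02801 CPM against 1.78, 0.508 and 0.518 CPM, with 0.868 CPM in the culture. Dlx6os1, an antisense RNA of the interneuron Dlx5 and Dlx6 locus, stood at 0.0874, 0 and 0.168 CPM against 2.35, 1.55 and 1.12 CPM, with 8.71 CPM in the culture; reads of the 2 strands cannot be told apart where the counting does not use strand. Mfng, which adds sugars to Notch receptors, stood at 0.553, 0.576 and 1.82 CPM against 6.77, 12.3 and 5.67 CPM, with 6.57 CPM in the culture. S1pr1, a sphingosine phosphate receptor gene, stood at 5.798, 9.06 and 18.9 CPM against 44.4, 64.7 and 36.6 CPM, with 55.8 CPM in the culture. In each of these 5 genes the PDGF-B-labelled gliomas were the lowest libraries, which follows from the rule of this count where the groups do not overlap.

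Immediate early genes, which respond within minutes to growth factors and to tissue dissociation, gave 4 calls among 24, each lower, with a median of -0.97 (-0.64 without PDGF-B-labelled replicate 1). Atf3, a stress-induced transcription factor, stood at 9.47, 22.3 and 17.6 CPM against 122, 191 and 86.5 CPM, a log2 fold change of -3.02 (adjusted p = 0.0245 in limma, SE 0.39). Egr2 stood at 21.1, 22.8 and 25.6 CPM against 75.8, 53.7 and 49.3 CPM, with narrow groups and a change of -1.34 (adjusted p = 0.0303 in limma, SE 0.21), and Zfp36, which destabilises cytokine messages, at 19.6, 64.3 and 57.8 CPM against 207, 385 and 228 CPM. Hypoxia and glycolysis genes gave no call among 26, with 10 at an unadjusted limma p under 0.05, against 16.7% of all genes. Their median of -0.88 was -0.56 without PDGF-B-labelled replicate 1 and also without EGFRvIII-labelled replicate 2. It was -1.24 without PDGF-B-labelled replicate 3, a fit in which 8 of the 26 were called lower. Endothelial markers gave none among 8, with 4 at an unadjusted limma p under 0.05; their summed level was 5.13 to 20.5 CPM in the PDGF-B-labelled and 17.1 to 32.2 CPM in the EGFRvIII-labelled gliomas.

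The genes higher in the PDGF-B-labelled gliomas were fewer, and besides Egfr, Gm12606 and Gm10182 they included adhesion molecules and genes of the oligodendrocyte lineage. Besides Egfr itself, the receptor genes Erbb2 and Erbb3 of its family were called higher among 13 measured members of the ErbB and EGF list. Erbb2 stood at 2.398, 4.04 and 5.098 CPM in the PDGF-B-labelled gliomas and 0.344, 0.239 and 0.629 CPM in the EGFRvIII-labelled gliomas, and at 10.9 CPM in the culture, above every glioma. Erbb3, the neuregulin receptor that needs a partner to signal, stood at 132, 145 and 118 CPM against 60.5, 62.1 and 47.05 CPM (log2 fold change 1.22, adjusted p = 0.0262 in limma, SE 0.18). The ligand genes Tgfa, Hbegf and Egf were not called, with log2 fold changes of 0.57, 0.10 and 0.33, nor was the feedback inhibitor Errfi1, at 0.41. Among 16 genes of MAPK feedback, which tracks signalling below growth factor receptors, none was called. An unadjusted limma p under 0.05 was found for 5 of the 16, against 16.7% of all genes. Spry2 stood at 127, 172 and 167 CPM against 149.6, 150.1 and 161 CPM and Dusp6 at 146, 160.3 and 197 CPM against 229, 216 and 209.9 CPM.

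Socs2 and Cish are feedback inhibitors of cytokine receptors, induced by STAT5, and were named after their values were seen. Socs2 stood at 142, 153 and 127 CPM in the PDGF-B-labelled gliomas and 35.4, 30.1 and 24.2 CPM in the EGFRvIII-labelled gliomas, and at 8.39 CPM in the culture. The groups lay far apart and each was narrow, and the log2 fold change was 2.24 (adjusted p = 0.012 in limma, SE 0.19). Cish stood at 21.8, 23.04 and 17.1 CPM against 6.21, 8.69 and 6.43 CPM, a smaller change of 1.53 (adjusted p = 0.0311 in limma, SE 0.25). Cryab, a small heat shock protein gene also named after its values were seen, stood at 96.6, 58.2 and 72.5 CPM against 5.86, 12.8 and 5.32 CPM, with 7.87 CPM in the culture (log2 fold change 3.32, adjusted p = 0.0218 in limma, SE 0.37).

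Oligodendrocyte precursor genes gave 3 calls among 23, each higher, with a median of 0.67. In 11 of the 23 all PDGF-B-labelled gliomas were above all others, where 10.3% of all genes were. Neu4, a sialidase gene, stood at 150.3, 233 and 81.4 CPM in the PDGF-B-labelled gliomas and 13.8, 1.14 and 2.07 CPM in the EGFRvIII-labelled gliomas, with a log2 fold change of 5.43 (adjusted p = 0.0309 in limma, SE 0.87). Susd5 stood at 2.97, 6.55 and 17.8 CPM against 0.688, 0.0897 and 0.191 CPM, with replicate 3 the highest of the PDGF-B-labelled gliomas. The defining markers Pdgfra, Cspg4 and Sox10 were not called, and Pdgfra, the receptor of PDGF-A and PDGF-B, stood at 3825, 4797 and 1738 CPM against 1904, 1402 and 1773 CPM, with overlapping groups. Cspg4, the NG2 proteoglycan, stood at 1108, 1326 and 761 CPM against 615, 604 and 744 CPM, and these 3 markers were above the culture in all 6 gliomas (408, 101 and 87.7 CPM there).

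The next step of the lineage, the committed precursor, had 5 genes called higher among 18, Gpr17, Bmp4, Enpp6 and Myrf among them. Gpr17, a receptor of that transient stage, stood at 498, 1267 and 482 CPM in the PDGF-B-labelled gliomas and 76.8, 123 and 103 CPM in the EGFRvIII-labelled gliomas, and at 33.7 CPM in the culture. PDGF-B-labelled replicate 2 was the highest, no groups overlapped, and the log2 fold change was 2.76 (adjusted p = 0.0257 in limma, SE 0.40). Enpp6, a choline phosphodiesterase of newly forming oligodendrocytes, stood at 15.4, 14.9 and 17.1 CPM against 0.287, 2.45 and 0.954 CPM (log2 fold change 4.05, adjusted p = 0.0312 in limma, SE 0.67), and Myrf, the transcription factor that switches on myelin genes, at 27.4, 50.9 and 37.3 CPM against 4.22, 5.74 and 11.6 CPM. The myelin protein genes Mbp and Mobp were not called: Mbp stood at 79.5, 135 and 78.4 CPM against 35.96, 94.8 and 165 CPM and Mobp at 7.57, 25.9 and 6.02 CPM against 6.77, 25.8 and 66.4 CPM. Fa2h, which makes hydroxylated myelin lipids, was called higher at 11.3, 18.4 and 10.5 CPM against 0.918, 0.717 and 2.92 CPM.

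**Figure D5:**
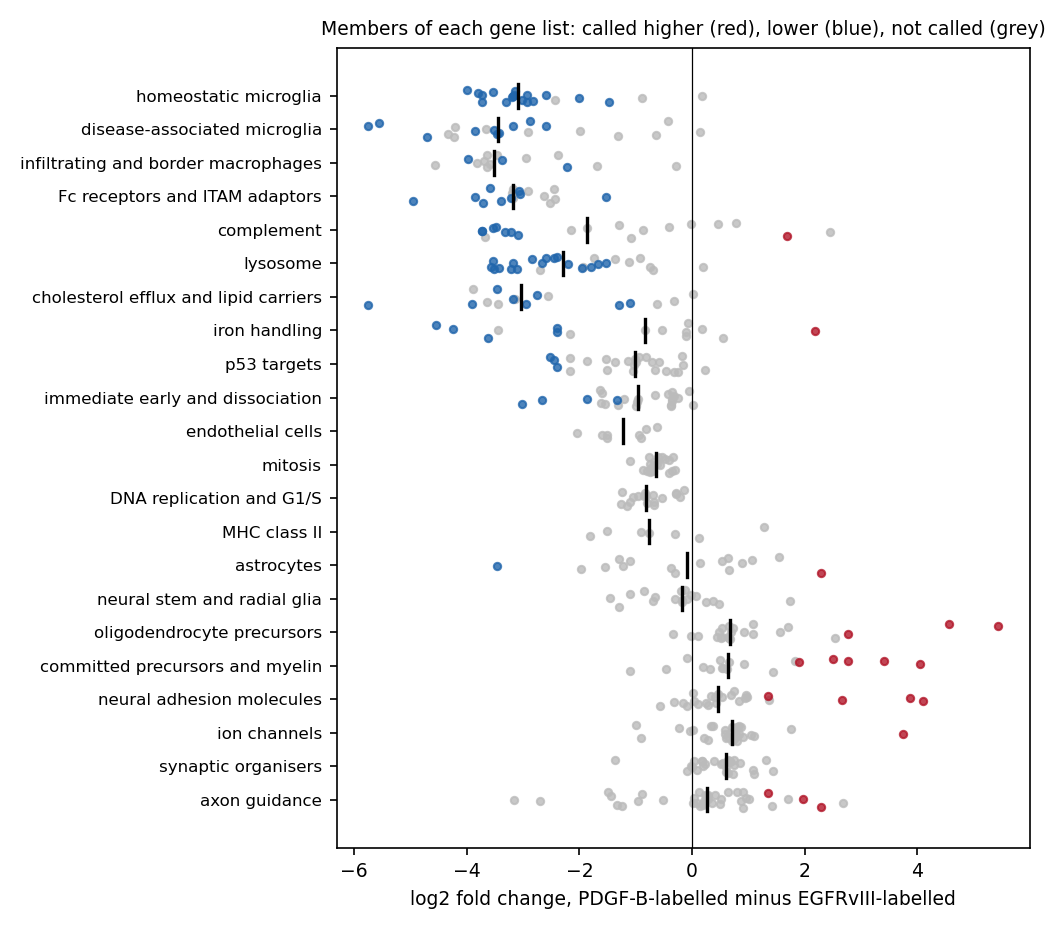
Log2 fold change of each measured member of 22 gene lists; points are genes, red if called higher and blue if called lower in the PDGF-B-labelled gliomas, and black ticks are list medians. The homeostatic microglia median is -3.08 and the lysosomal one -2.30, while oligodendrocyte lists have medians of 0.67 and 0.64 with their called members far to the right.

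Adhesion molecules that bind axons and glia gave 4 calls among 25, each higher, with a median of 0.47. L1cam stood at 25.6, 41.4 and 23.3 CPM in the PDGF-B-labelled gliomas and 2.01, 0.986 and 2.24 CPM in the EGFRvIII-labelled gliomas, and at 1.59 CPM in the culture; its log2 fold change was 4.10 (adjusted p = 0.0163 in limma, SE 0.40). The contactin genes Cntn3 and Cntn6 stood at 7.34, 6.82 and 6.47 CPM against 1.29, 0.658 and 1.31 CPM and 37.1, 66.6 and 7.62 CPM against 1.26, 1.704 and 2.56 CPM, and Cntn6 had its lowest PDGF-B-labelled value in replicate 3. Nrcam stood at 217, 272 and 189 CPM against 94.6, 92.4 and 76.8 CPM, a change of 1.35 (adjusted p = 0.0257 in limma, SE 0.20). Ncam1 and Cdh2, the broadly expressed neural cell adhesion genes, were not called, with log2 fold changes of 0.84 and 0.42.

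Axon guidance genes gave 3 calls among 38, each higher, where 0.717% of all genes were called higher. In 10 of the 38 all PDGF-B-labelled gliomas were above all others and in 6 below, against 10.3% and 12.6% of all genes. Without PDGF-B-labelled replicate 3, 6 were called higher and 4 lower. Ntn1, the secreted cue netrin-1, stood at 407, 277 and 292 CPM in the PDGF-B-labelled gliomas and 100.1, 70.4 and 77.8 CPM in the EGFRvIII-labelled gliomas, and at 70.1 CPM in the culture. The EGFRvIII-labelled gliomas were near the culture and the PDGF-B-labelled gliomas above both, with a log2 fold change of 1.97 (adjusted p = 0.0218 in limma, SE 0.23). The netrin receptor genes Dcc and Unc5c were not called, at 0.15 and 0.04. Plxnb1 and Plxnb3, receptors of class 4 and class 5 semaphorins, stood at 182, 241 and 138 CPM against 64.5, 66.3 and 85.8 CPM and 211, 202 and 168 CPM against 29.01, 26.9 and 77.5 CPM. Sema3a and its receptor gene Nrp1 had negative log2 fold changes of -3.16 and -2.70 and were not called, with limma adjusted p of 0.152 and 0.0855.

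The lists of ion channels and of glutamate and GABA receptors held 1 called gene each. Cacna1g, a low-voltage calcium channel subunit, stood at 59.4, 141 and 31.9 CPM in the PDGF-B-labelled gliomas and 3.99, 6.22 and 4.28 CPM in the EGFRvIII-labelled gliomas, with a log2 fold change of 3.75 (adjusted p = 0.0245 in limma, SE 0.51); it was the call among 31 ion channels, of which 27 had a positive value. Kcnq3 and Cacnb2, channel subunit genes outside that list and named after their values were seen, were called higher too, at 87.1, 80.9 and 54.8 CPM against 15.6, 21.4 and 20.99 CPM and 15.99, 12.6 and 7.52 CPM against 2.84, 0.508 and 1.42 CPM. Grin3a, an NMDA receptor subunit, stood at 165, 224 and 86.01 CPM against 34.9, 34.04 and 55.01 CPM, the call among 25 glutamate and GABA receptors. Adarb2, an RNA-binding relative of the RNA editing enzymes, stood at 77.9, 74.2 and 24.1 CPM against 4.13, 0.389 and 1.83 CPM. Synaptic organisers such as neurexins and neuroligins gave no call among 27, with 8 at an unadjusted limma p under 0.05, and their median of 0.59 was 0.33 without PDGF-B-labelled replicate 2 and 0.35 without EGFRvIII-labelled replicate 2. It was 0.81 without PDGF-B-labelled replicate 3, a fit in which 3 were called higher and 1 lower. Mature neuron markers gave none among 11, with 2 at an unadjusted limma p under 0.05; their median of 0.14 was -0.29 without PDGF-B-labelled replicate 3 and -0.23 without EGFRvIII-labelled replicate 1, and 0.58, 0.34 and 0.48 without PDGF-B-labelled replicate 1 and EGFRvIII-labelled replicates 2 and 3.

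Matrix genes moved in both directions, with 5 called higher and 1 lower among 31 collagens, laminins and proteases. Col4a1 and Col4a2, the paired chains of basement membrane collagen that share a promoter region, stood at 208, 134 and 175 CPM against 50.6, 44.1 and 49.6 CPM and 75.3, 72.5 and 46.1 CPM against 23.3, 15.3 and 25.4 CPM. Col11a2 and Col9a3, collagens best known from cartilage, stood at 41.6, 82.4 and 37.5 CPM against 6.05, 4.01 and 7.25 CPM and 52.9, 64.7 and 28.7 CPM against 12, 9.47 and 13.7 CPM. The metalloproteinase inhibitors diverged: Timp3 was higher at 279, 323 and 91.04 CPM against 43.5, 21.1 and 24.98 CPM, a log2 fold change of 2.82 (adjusted p = 0.0344 in limma, SE 0.51), and Timp2 lower at 144, 128 and 148 CPM against 292, 436 and 289.7 CPM, a change of -1.25 (adjusted p = 0.032 in limma, SE 0.21). Fn1, fibronectin, stood at 111, 191 and 150.2 CPM against 376, 1580.1 and 762 CPM and was not called (limma adjusted p = 0.0528).

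Among the largest higher differences, those of Nxf3 and Pdlim3 rested on uneven replicates. Nxf3, a messenger RNA export factor relative on the X chromosome, stood at 306, 16.4 and 33.7 CPM in the PDGF-B-labelled gliomas and 0.832, 1.14 and 1.69 CPM in the EGFRvIII-labelled gliomas, with replicate 1 far above the other libraries of its group. Pdlim3, a muscle cytoskeleton protein gene, stood at 78.1, 5.39 and 36.05 CPM against 0.6596, 0.0897 and 0.382 CPM, lowest in replicate 2. Meox1, a homeobox gene of somites, stood at 90.9, 65.5 and 52.2 CPM against 15.8, 3.497 and 3.52 CPM, with 0.0289 CPM in the culture and a log2 fold change of 3.53 (adjusted p = 0.0312 in limma, SE 0.59). Capn5, a calcium-dependent protease gene, and Tmem88b, a membrane protein gene, stood at 27.1, 63.2 and 26.6 CPM against 3.499, 2.21 and 2.48 CPM and 26.6, 47.7 and 15.96 CPM against 2.15, 1.88 and 2.37 CPM. S100b, a calcium-binding protein of glia, stood at 88.2, 82.4 and 61.4 CPM against 23.9, 10.6 and 14.99 CPM. In the culture the 5 genes stood at 0.347, 0.318, 0.0289, 13.3 and 0.695 CPM, and S100b at 0.939 CPM. S100b was the 1 gene called higher among 16 astrocyte genes, of which 1 was called lower. Of the 16, 8 had positive and 8 negative log2 fold changes, with a median of -0.08. That median was 0.67 without PDGF-B-labelled replicate 1 and -1.01 without PDGF-B-labelled replicate 3.

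In 9 of the 125 higher genes the culture reached the lowest PDGF-B-labelled glioma, so that the EGFRvIII-labelled gliomas were the low libraries. The genes Hs3st1, Hdac7 and Hdac9 of this group were named after their values were seen. Hs3st1, a heparan sulfate sulfotransferase gene, stood at 4.46, 4.64 and 2.52 CPM against 0.115, 0.329 and 0.245 CPM, with 7.21 CPM in the culture. The class IIa histone deacetylase genes Hdac7 and Hdac9 stood at 33.1, 37.2 and 32.6 CPM against 12.3, 11.5 and 14.3 CPM and 58.5, 54.96 and 41.3 CPM against 19.6, 23.9 and 25.9 CPM, with 44.8 and 44.3 CPM in the culture. In 90 of the 125 the culture stood within or below the EGFRvIII-labelled gliomas, and in 26 between the groups.

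Lists of housekeeping and proliferation genes gave no calls. None of 20 mitosis and none of 18 DNA replication genes had an unadjusted limma p under 0.05, and Mki67, a protein of dividing cells, stood at 512, 64.6 and 554 CPM in the PDGF-B-labelled gliomas and 425, 285 and 530.2 CPM in the EGFRvIII-labelled gliomas. Only PDGF-B-labelled replicate 2 was low; without it the mitosis median went from -0.64 to 0.33, and without PDGF-B-labelled replicates 1 and 3 to -1.13 and -1.11. All 30 ribosomal protein genes had negative log2 fold changes, with a median of -0.96 and 9 at an unadjusted limma p under 0.05, and Rps15 stood at 184, 172 and 298 CPM against 302, 824 and 330.1 CPM. All 32 respiratory chain genes were negative too, with a median of -0.40 and 1 at an unadjusted limma p under 0.05. Without EGFRvIII-labelled replicate 2 the ribosomal median was -0.50 and the respiratory one -0.11, and 8 of the 32 respiratory chain genes were positive. MHC class I and II genes gave none among 16 and 7, each with 1 at an unadjusted limma p under 0.05; B2m stood at 333, 101 and 421 CPM against 285, 1311 and 259 CPM and Cd74 at 17.6, 9.44 and 191 CPM against 10.4, 422 and 35.96 CPM, so that EGFRvIII-labelled replicate 2 was the highest library in both. Interferon-stimulated genes gave 1 call among 23, Ifi27, higher at 72.3, 62.03 and 85.7 CPM against 31.8, 40.4 and 27.6 CPM, while Oasl2 stood at 31.1, 29.9 and 68.8 CPM against 6.19, 16.1 and 5.75 CPM and missed the threshold (limma adjusted p = 0.0575).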

How the data were processed

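RNA of DsRed-sorted cells was sequenced in 6 gliomas and 1 culture. The authors used STAR, edgeR and the mm10 build, per the submitters' processing notes; the sources used here do not give the quantifier, the filter or the scaling. The authors deposited log2 CPM, per the file headers of 6 files; the column of EGFRvIII-labelled replicate 3 names no unit and has the same floor, -4.12. The values are whole multiples of 0.01 read with a prior of 2 reads, which gave back the reads and the CPM printed here.

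Deposited values of the 6 gliomas were fitted in limma 3.58.1 under R 4.3.3 (intensity trend, robust moderation, 4 residual degrees of freedom, Benjamini-Hochberg over 17422 genes). P-values measure the spread between these tumours. Symbols and coordinates came from GENCODE M21 (GRCm38); 168 IDs had none. Promoters came from RefSeq.

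The members, the 56 gene lists and the rules were chosen with earlier results of these data known. Named genes are the drivers, the 8 largest called differences per direction and culture class (under 1 CPM or not) at 10 CPM or more in the higher group, the 5 highest called per exon kilobase and direction, up to 3 called members per list (or its highest member) and genes called in every leave-one-out fit; others are said to be chosen later or belong to a list described. Alternatives covered scaling, priors, filters, moderation, a replicate block and leaving out each glioma. The fit was tested on simulated data. Results of some genes are not reported here.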

Additional observations from a re-analysis of the deposited data

How the results depend on the processing

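Directions held more widely than calls. All 583 called genes kept their sign in every alternative fitted over all genes, and none of the 96 called genes among those named reversed. For genes whose groups do not overlap, the sign cannot turn when 1 glioma is left out. The kept signs are therefore no separate support for the calls. Library totals, median-of-ratios factors, quantile normalization, a prior of 0.5 or 5 reads, a CPM minimum, voom on recovered reads and a fit of all 7 libraries kept each count within 1.5 times its value (516 to 671 calls). Without the intensity trend and robust moderation 224 genes were called (62 higher, 162 lower; 140 under and 84 at or above 1 CPM in the culture). At an adjusted p of 0.01 there were 7 (3 higher, 4 lower; 5 and 2 by culture level), and 178 where genes at or above 1 CPM in the culture were fitted alone, against 281. Leaving out 1 glioma gave 4 to 1282 calls (2 to 308 higher, 2 to 974 lower, 2 to 610 and 2 to 672 by culture level); the cause was not tested.

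Deviations from the group mean correlated at 0.175, -0.036 and -0.080 between same-numbered gliomas of the groups. Between differently numbered gliomas the correlations ranged from -0.25 to 0.207. With 3 gliomas per group these values cannot show whether the numbers pair the gliomas, and the labels do not say so. With a replicate block 18 genes were called (5 higher, 13 lower; 13 and 5 by culture level).

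Among the genes chosen by the naming rule, leaving out 1 glioma turned the sign of 10 that were not called; other uncalled list members with small differences turned too, such as Hbegf (-0.18 to 0.42) and Il34 (-0.11 to 1.17). For the 10, log2 fold changes ranged over these fits from -0.55 to 0.046 for Fabp7, -0.61 to 0.12 for Hsp90b1, -2.07 to 0.71 for Cd74 (0.10 without PDGF-B-labelled replicate 2), -1.14 to 0.41 for Mki67, -0.32 to 0.016 for Rbbp7, -0.74 to 0.020 for Tagln, -0.61 to 0.16 for Cdkn2b, -0.14 to 0.26 for Foxj1, -0.15 to 0.34 for Ptprz1 and -0.27 to 0.37 for Hmgcs1. On simulated data the fit called 16.4%, 71.6% and 92.4% of genes with a change of 2, 4 and 8 times. There smaller differences were often missed at this number of gliomas, and 7% of the 129 calls were false. The simulated noise was independent between genes, and the changed genes had a mean log2 CPM above 0. These rates may therefore not hold for the gliomas, where single libraries had a large part in the calls.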

Other observations

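Other signalling families gave scattered calls. Of 26 FGF and other tyrosine kinase genes, Hgf and Mertk, the engulfment receptor gene, were called, both lower; Mertk stood at 18.4, 32.6 and 33.05 CPM against 109, 107 and 110 CPM, with 9.75 CPM in the culture. The receptor genes Kit and Alk were higher in the mean but not called, at 66.9, 40.6 and 45.1 CPM against 13.02, 18.5 and 27.9 CPM and 20.6, 14.4 and 8.37 CPM against 4.82, 1.94 and 3.65 CPM (limma adjusted p = 0.0699 and 0.0646). Of 25 Wnt genes, the secreted Wnt inhibitor gene Sfrp2 was called, lower at 12.5, 8.51 and 11.3 CPM against 35.5, 22.2 and 25.8 CPM. Of 20 brain proteoglycan and tenascin genes none was called, with 6 at an unadjusted limma p under 0.05. Forebrain patterning genes gave none among 22, with 2 at an unadjusted limma p under 0.05, which 16.7% of all genes had.

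Xist, the RNA that silences an X chromosome in female cells, stood at 3258, 2735 and 3069 CPM against 3202, 2033 and 2768 CPM, with 3169.8 CPM in the culture. The Y-linked gene Ddx3y stood at 3.09, 2.58 and 6.81 CPM against 0, 0 and 22.9 CPM, with 0.0289 CPM in the culture, so that reads of both kinds were present in 4 of the gliomas. Of the 17422 deposited rows, 240 held values identical to those of another row in all 7 libraries.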
